A study of Homo sapiens with 6 samples.

Results

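The 3 genes of the MYB family (MYB, MYBL1 and MYBL2), 4 subunits of the MuvB complex (LIN9, LIN37, LIN52 and LIN54) and FOXM1 were followed in HCT116, an established cell line of human colorectal carcinoma, with and without oxaliplatin. The 8 genes were taken by symbol from a table of 27942 genes, and all 8 passed the filter on low counts that left 13727 genes for testing. One group, OXA, was exposed to oxaliplatin, a platinum compound that binds DNA, at 0.5 µM for 24 h, and the other, NT, was not treated. Each group had 3 RNA-seq libraries made from polyA RNA, numbered 1 to 3, with 32979521 to 40967880 counts. Both groups came from the same line, and nothing in the labels tells whether the libraries of a group came from separate cultures, so the errors given are the spread between these libraries.

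MuvB is a core of LIN proteins and the histone-binding protein RBBP4 that sits on cell cycle promoters. With the pocket proteins p107 (RBL1) or p130 (RBL2) and E2F4 or E2F5 it forms DREAM, which keeps cell cycle genes off in resting cells and is favoured when p53 induces p21. In S phase the same core exchanges these partners for B-MYB, the product of MYBL2, and later works with FOXM1 to switch on genes of G2 and mitosis. MYB, which encodes c-MYB, is best known from blood progenitors and is also expressed in colonic crypts and colorectal tumours.

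Promoter sequences of 4 members are shown because they hold, or lack, the letters searched here for elements through which these factors meet DNA. These are the E2F element and the cell cycle genes homology region (CHR), which LIN54 binds. They are RefSeq promoters on GRCh38.p14, printed in the direction of transcription, capitals mark matches to the E2F, CHR and forkhead letters (GGCGG is not marked), and positions count back from the base before the start site, which is -1. The MYB stretch is chr6:135181188-135181307 on the plus strand, the 120 bases before the start site, with an E2F match at -60 to -54 and, at -14 to -9, the forkhead letters TAAACA read on the other strand. The LIN54 stretch is chr4:83010834-83010953 on the minus strand, with a CHR match at -100 to -95 and an E2F match at -92 to -86. The LIN52 stretch is chr14:74084836-74084955 on the plus strand and has no match to the E2F, CHR, CCAAT, MYB or forkhead letters searched here. It does hold TTTCCCGC, a form of the E2F element that was not among the letters searched. A shorter piece of the MYBL2 promoter, chr20:43667062-43667090 on the plus strand, has an E2F match at -41 to -35. This piece lies within the gene as annotated in GENCODE, which starts at 43667019, ahead of the start site used here.
MYB: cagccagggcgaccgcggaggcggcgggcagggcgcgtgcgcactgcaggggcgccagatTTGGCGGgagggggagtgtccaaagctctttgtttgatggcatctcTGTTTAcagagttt
LIN54: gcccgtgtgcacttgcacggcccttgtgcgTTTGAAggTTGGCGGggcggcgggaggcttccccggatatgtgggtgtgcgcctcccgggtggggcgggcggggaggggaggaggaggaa
LIN52: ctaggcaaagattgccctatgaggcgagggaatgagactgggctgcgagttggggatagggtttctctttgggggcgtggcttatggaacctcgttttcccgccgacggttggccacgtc
MYBL2: cgccgacgcgcTTGGCGGgagatagaaaa

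Motifs were searched on both strands in windows of 250 bases before to 50 bases after each start, in 10 promoters of 6 members and in all 35116 promoters of the RefSeq table. MYBL1 and FOXM1 had no entry. An E2F match (TTCGCGC or TTCGCGG or TTGGCGC or TTGGCGG) lay in 4 of the 10 member promoters, those of MYB and MYBL2 and both overlapping windows of LIN54, and in 10.3% of all promoters or 15.3% of the 15237 promoters of tested genes. A CHR match (TTTGAA or TTCGAA) lay in 4 of the 10, both windows of LIN54 and 1 window each of LIN9 and LIN37. It lay in 16.4% of all promoters and 11.7% of those of tested genes. The CCAAT box lay in 2 (LIN37 and LIN52) against 34.6%, the MYB letters CAACGG or CAACTG or TAACGG or TAACTG in 1 (LIN9) against 25.7%, and TAAACA in 1 (MYB) against 12.3%. GGCGG, the letters of the CDE element that can accompany a CHR, lay in 9 of 10 member promoters. It lay in 59.0% of all promoters and 81.6% of those of tested genes, and some of the E2F matches contain it. Other forms of the E2F element, such as TTTCCCGC in LIN52, were not searched, so the E2F shares hold only for the letters given. A match of this kind is a description of the letters and not a binding site.

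Transcripts of every member were lower on average in OXA than in NT, from 3.07-fold for MYB to 1.13-fold for LIN37. The 8 genes were chosen by name with their OXA over NT fold changes in these libraries known, so their values are described and no p is given for them. Values are counts scaled by library size with TMM factors, called normalized counts, and differences are log2 fold changes of OXA over NT with a standard error (SE). MYB was the only member called at an adjusted p under 0.05, that is 1 of 8, in a fit where 2.29% of all tested genes were called lower. In MYB, LIN52, LIN54 and FOXM1, 4 of 8, every OXA library lay below every NT library, as was so for 14.4% of all tested genes. The median log2 fold change was -0.40 over the members and 0.023 over all tested genes. In these bulk libraries, fewer cells in a given phase of the cycle and less RNA per cell cannot be told apart.

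**Figure D1:**
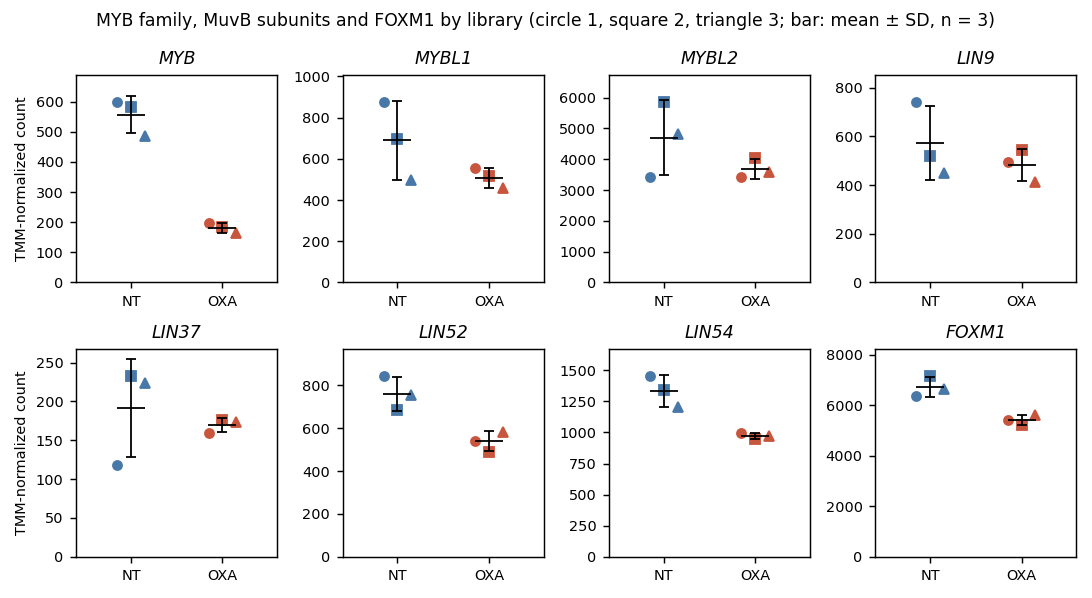
Normalized counts of the 8 members in each of the 6 libraries (circle 1, square 2, triangle 3), with the mean and SD of each group of 3. The groups are apart for MYB, LIN52, LIN54 and FOXM1 and overlap for MYBL1, MYBL2, LIN9 and LIN37.

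In the MYB family, MYB (ENSG00000118513, GRCh38 chr6:135181308-135219173, plus strand) stood apart. It had 600, 582 and 486 normalized counts in NT 1, 2 and 3 and 197, 183 and 164 in OXA 1, 2 and 3. All 3 OXA libraries were far below the lowest NT library, and within each group library 3 was the lowest. The means were 556 ± 61.1 (SD, n = 3) in NT and 181 ± 16.6 (SD, n = 3) in OXA, a log2 fold change of -1.62 (SE 0.15), the 14th lowest of the 13727. Leaving out any 1 library kept the estimate between -1.74 and -1.56. MYB-AS1, on the opposite strand, shares 103 exonic bases with MYB in GENCODE, and the strand setting used for counting is not given in the sources used here.

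MYBL1, which encodes A-MYB, a factor best known from male germ cells (ENSG00000185697, chr8:66562175-66614247, minus strand), had 877, 695 and 495 normalized counts in NT and 553, 516 and 457 in OXA. NT spread widely and NT 3 lay within the OXA range. The means were 689 ± 191 and 509 ± 48.3 (SD, n = 3 each), a log2 fold change of -0.44 (SE 0.21). Without NT 1, the highest library, it was -0.23.

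MYBL2 (ENSG00000101057, chr20:43667019-43716495, plus strand) had 3420, 5867 and 4819 normalized counts in NT and 3428, 4031 and 3581 in OXA. NT 1 was as low as the lowest OXA library, while NT 2 and NT 3 were above all 3 OXA libraries. The means were 4702 ± 1227 and 3680 ± 314 (SD, n = 3 each), a log2 fold change of -0.35 (SE 0.18). Without NT 1 it was -0.54 and the gene was called.

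The ratio of MYBL2 to MYB counts within a library needs no scaling for library size. It is not free of library deviations that go with GC content, which was 60.0% for MYBL2 and 43.9% for MYB. NT 1 deviated from the NT mean by -0.42 (log2) for MYBL2 and 0.12 for MYB. The part of GC content in the ratio was not tested. The ratio was 5.70, 10.1 and 9.91 in NT and 17.4, 22.01 and 21.8 in OXA. Every OXA library had a higher ratio than every NT library, so the balance of B-MYB to c-MYB transcripts moved toward MYBL2 although both were lower on average.

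Among the MuvB subunits, LIN52 and LIN54 were lower in every OXA library. LIN52, the subunit whose phosphorylation by DYRK1A favours binding of the pocket proteins (ENSG00000205659, chr14:74084956-74201493, plus strand), had 843, 683 and 753 normalized counts in NT and 542, 491 and 583 in OXA. The means were 760 ± 80.5 and 538 ± 46.1 (SD, n = 3 each), a log2 fold change of -0.50 (SE 0.13). LIN54, the DNA-binding subunit (ENSG00000189308, chr4:82909973-83012926, minus strand), had 1455, 1342 and 1204 in NT and 992, 947 and 973 in OXA. Its means were 1333 ± 126 and 971 ± 22.4 (SD, n = 3 each), a log2 fold change of -0.46 (SE 0.11). The OXA libraries of LIN54 were closer to each other than the NT libraries were.

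LIN9 and LIN37 overlapped between the groups. LIN9, a scaffold subunit (ENSG00000183814, chr1:226231149-226309869, minus strand), had 743, 522 and 451 normalized counts in NT and 497, 543 and 413 in OXA. The difference of the means, 572 ± 153 against 484 ± 66.1 (SD, n = 3 each), was a log2 fold change of -0.24 (SE 0.21), and without NT 1 it was -0.0072. LIN37, a subunit needed for repression by DREAM (ENSG00000267796, chr19:35748361-35754519, plus strand), had 119, 233 and 224 in NT and 159, 176 and 174 in OXA. Here NT 1 was the lowest of all 6 libraries. The means were 192 ± 63.4 and 169 ± 9.05 (SD, n = 3 each), a log2 fold change of -0.18 (SE 0.26), which became -0.43 without NT 1. LIN37 shares 752 exonic bases with a protein-coding gene on the same strand (ENSG00000188223, 0 to 16 counts) and 1180 with a non-coding RNA on the other, so its counts are uncertain.

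FOXM1, the forkhead activator of G2 and mitosis genes (ENSG00000111206, chr12:2857680-2877174, minus strand), had 6371, 7156 and 6659 normalized counts in NT and 5413, 5205 and 5616 in OXA. The groups did not overlap, and the spread within each was narrow. The means were 6729 ± 397 and 5411 ± 205 (SD, n = 3 each), a log2 fold change of -0.31 (SE 0.084), the smallest standard error of the 8. RHNO1, a checkpoint gene that overlaps FOXM1 on the opposite strand without sharing exonic bases, had 1453 ± 159 and 1041 ± 58.6 (SD, n = 3 each), a log2 fold change of -0.48 with an adjusted p of 0.0549 by edgeR. ITFG2, which shares 782 exonic bases with FOXM1 on the other strand, had a log2 fold change of 0.065. RHNO1 and ITFG2 were looked up after the FOXM1 values were seen.

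**Figure D2:**
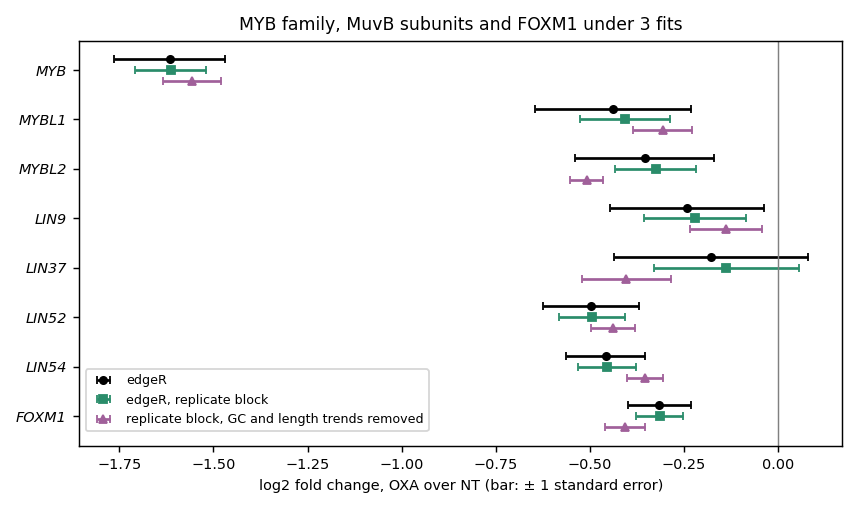
Log2 fold change of OXA over NT for the 8 members with its SE, in the edgeR fit (circles), with the replicate block (squares) and with the block and GC and length trends removed (triangles). Every estimate is below 0, and MYB (-1.62, -1.61 and -1.56) lies far below the other members.

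The members kept their direction in each of 16 alternative fits, but how many were called did not. MYB was called in all 16, LIN54 in 6, FOXM1 in 5, LIN52 in 4, MYBL2 in 2, MYBL1 and LIN37 in 1 each and LIN9 in none. Over all tested genes, these fits called from 19 to 3038 lower. The fits drew on the same libraries and the contrast known when the members were chosen, so these tallies are descriptions and not independent support. Libraries with the same number deviated together from their group means. With the replicate number as a block, MYB, LIN52, LIN54 and FOXM1 were called, 4 of 8 against 10.9% of all tested genes called lower. The block hardly moved the estimates, which were -1.61 for MYB, -0.49 for LIN52, -0.45 for LIN54 and -0.31 for FOXM1.

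NT 1 differed from the other NT libraries in step with the GC content of the transcript. Its median log2 deviation from the NT mean was 0.15 over the 3419 genes of lowest GC content (27.8% to 42.0%) and -0.50 over the 3419 of highest (57.0% to 74.8%). Members at both ends of the GC range deviated in the same directions. NT 1 was above the NT mean by 0.41 for LIN9 (34.9% GC) and 0.39 for MYBL1 (37.2% GC), and its deviation was -0.42 for MYBL2 (60.0% GC) and -0.62 for LIN37 (59.9% GC). For MYB, LIN52, LIN54 and FOXM1, with 39.1% to 55.7% GC, the deviation of NT 1 lay between -0.077 and 0.16. Other libraries deviated with GC content as well. Over the 3419 genes of highest GC content, the median deviation from the group mean was 0.32 in NT 2 and 0.19 in NT 3. It was -0.17 in OXA 1, 0.20 in OXA 2 and -0.023 in OXA 3. The part of GC content in the members' differences was not tested. An alternative fit removed each library's trend with GC content and transcript length, taken relative to the mean of all 6 libraries. Any GC-linked difference between OXA and NT was therefore removed as well. With the block and with GC and length trends removed, a fit chosen after seeing the data, 7 of 8 members were called, all except LIN9, against 22.1% of all tested genes called lower. In that fit the log2 fold change was -1.56 for MYB, -0.31 for MYBL1, -0.51 for MYBL2, -0.14 for LIN9, -0.40 for LIN37, -0.44 for LIN52, -0.35 for LIN54 and -0.41 for FOXM1.

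**Figure D3:**
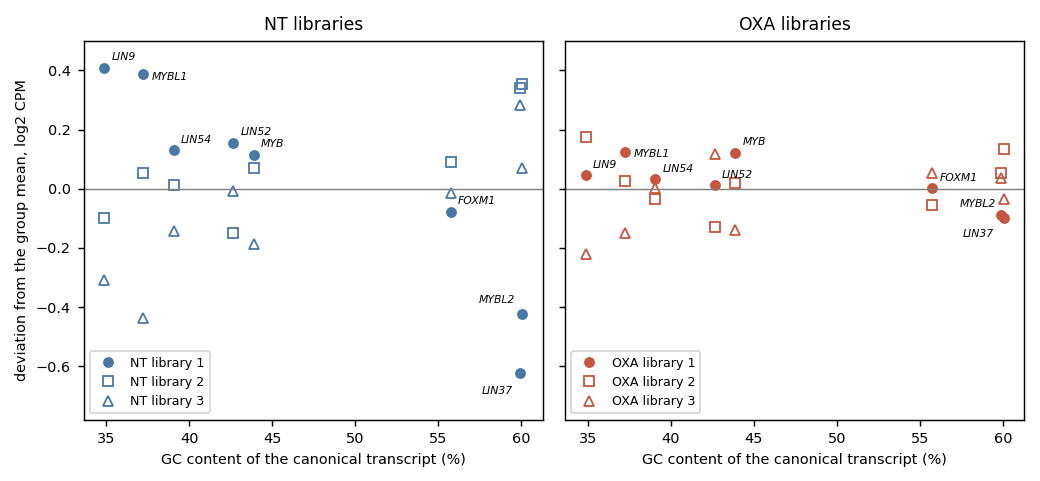
Deviation of each library from its group mean (log2) for the 8 members against the GC content of the canonical transcript in percent, NT on the left and OXA on the right. NT 1 is high for the members of lowest GC content (0.41 for LIN9) and low for those of highest (-0.62 for LIN37).

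Levels were compared between genes as CPM, counts relative to the TMM-scaled library total, divided by the length of the canonical transcript in kilobases. On this scale FOXM1 and MYBL2 had levels several times those of the other members. In NT the levels were 52.6 ± 3.11 for FOXM1 and 49.0 ± 12.8 for MYBL2 (SD, n = 3), and these 2 overlapped. Then came LIN52 at 7.34 ± 0.778, LIN54 at 6.05 ± 0.570, LIN37 at 5.69 ± 1.89, LIN9 at 5.30 ± 1.41, MYB at 4.19 ± 0.461 and MYBL1 at 3.71 ± 1.03 (SD, n = 3). Each of these neighbours overlapped with the next in range, so their order is not fixed. In OXA the level of MYB was 1.37 ± 0.125, below that of MYBL1 at 2.74 ± 0.260 (SD, n = 3) with no overlap, and MYB became the lowest of the 8. All 8 together had 405, 483 and 425 CPM of the raw library total in NT and 318, 336 and 328 in OXA, so every OXA library was below every NT library. Of single tested genes, 14.4% did the same on normalized counts. FOXM1 and MYBL2 dominated the sum, with 6232 and 3346 of 14114 counts in NT 1 and 5003 and 3168 of 10888 in OXA 1.

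Some members were alike in pattern over the 6 libraries. Likeness was measured as the root mean square difference of mean-centred log2 CPM, in which 0 is identical, and the points share the same 6 libraries. The centring is over both groups, so likeness includes the difference between OXA and NT and is not separate from the fold changes. LIN52 and LIN54 were closest at 0.11, then LIN54 and FOXM1 at 0.13, MYBL1 and LIN9 at 0.14 and MYBL2 and LIN37 at 0.16. MYBL1 and LIN9 were both of low GC content (37.2% and 34.9%) and both high in NT 1. MYBL2 and LIN37 were both of high GC content (60.0% and 59.9%) and both low in NT 1. The part of GC content in these likenesses was not tested. MYB was at least 0.58 from every other member. Among 12065 genes with a mean of at least 50 normalized counts, those most like MYB were FAM111B (0.15, log2 fold change -1.64), TMSB15A (0.17, -1.37) and SESTD1 (0.18, -1.28). Those most like MYBL2 were INCENP (0.028), a subunit of the chromosomal passenger complex, GATD1 (0.053) and KIF18B (0.054), a mitotic kinesin. INCENP had 2024, 3516 and 2971 normalized counts in NT 1, 2 and 3, with NT 1 the lowest of NT as for MYBL2. Those most like FOXM1 were POGZ (0.032), FARP1 (0.041) and CDCA8 (0.042), which encodes the passenger subunit borealin.

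Among 9 binding partners and paralogs of MuvB subunits, RBL1 was the only gene called (11.1% of the list, against 2.29% of all tested genes called lower). RBL1, which encodes the pocket protein p107 and is itself an E2F target, fell from 1730 ± 139 to 998 ± 92.1 normalized counts (SD, n = 3 each), a log2 fold change of -0.79 (SE 0.11, adjusted p = 0.0112 by edgeR). The call was lost without OXA 1 (adjusted p = 0.0723) or OXA 2 (0.0600). RBBP4, the remaining MuvB subunit, had 13225 ± 1169 and 10277 ± 653 normalized counts (SD, n = 3 each), a log2 fold change of -0.36 (SE 0.098). Its adjusted p was 0.0795 without and 0.0123 with the replicate block, and all 3 OXA libraries were below all 3 NT libraries. RBBP7, its paralog, did the same, with a log2 fold change of -0.43 (adjusted p = 0.0532 by edgeR, 0.00781 with the block). The DREAM partners RBL2 (-0.16), E2F4 (0.10), E2F5 (0.18), TFDP1 (-0.11) and TFDP2 (-0.05) overlapped between the groups, as did TESMIN (-0.22), a paralog of LIN54. None of the 9 was called higher by edgeR or by DESeq2, and none had an unadjusted p under 0.05 with a higher estimate.

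Of 20 kinases, ubiquitin ligase subunits, co-activators and antagonists that act on these factors, CCND1 was the only gene called higher (5% of the list, against 2.78% of all tested genes). CCND1, cyclin D1, a partner of the kinases that phosphorylate pocket proteins and FOXM1, went from 17473 ± 1038 to 27932 ± 440 normalized counts (SD, n = 3 each), a log2 fold change of 0.68 (SE 0.084, adjusted p = 0.00768 by edgeR), and the adjusted p was 0.0566 without OXA 1. None was called lower by edgeR, 5 had an unadjusted p under 0.05 with a lower estimate, as did 11.1% of all tested genes, and DESeq2 called 3 lower, against 4.23% of all genes it tested. With the replicate block, 3 were called higher and 5 lower, against 12.1% and 10.9% of all tested genes. The higher ones were CCND1, its kinase CDK6 (0.41, adjusted p = 0.00568) and FBXW7 (0.38, adjusted p = 0.0161), which targets c-MYB among others for degradation. The lower ones were DYRK1A (-0.26, adjusted p = 0.0262), the LIN52 kinase, CDK2 (-0.39, adjusted p = 0.00907), MELK (-0.47, adjusted p = 0.0104), PIM1 (-0.33, adjusted p = 0.0453) and KMT2A (-0.32, adjusted p = 0.0139).

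Among the G2 and mitosis genes known as targets of B-MYB, MuvB and FOXM1, most estimates were lower in OXA but few passed the threshold. Of 63 tested, 60 had a lower estimate, the median log2 fold change was -0.31 and the range was -0.65 to 0.034. In 39 of them (61.9%) every OXA library was below every NT library, against 14.4% of all tested genes. Only 8 (12.7%) fell past the threshold, against 2.29% of all tested genes. The lowest were DEPDC1 (-0.65, adjusted p = 0.0273), the spindle motor KIF11 (-0.63, adjusted p = 0.0275), the proliferation marker MKI67 (-0.60, adjusted p = 0.0258), the spindle checkpoint kinase TTK (-0.56, adjusted p = 0.0376) and the CDK1-activating phosphatase CDC25C (-0.55, adjusted p = 0.0428), all by edgeR. The count was 41 with the replicate block and 57 with the block and trends removed, fits that called 10.9% and 22.1% of all tested genes lower. It was 17 without NT 1, 3 without NT 2, 1 without NT 3 and 0 without OXA 1, OXA 2 or OXA 3. No gene of this list was thus called whichever library was left out. Calls over all tested genes moved as well. In the same order, these fits called 571, 146, 69, 19, 32 and 67 genes lower, against 315 with all libraries. None was called higher by edgeR or DESeq2, and none had an unadjusted p under 0.05 with a higher estimate.

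The G1/S genes known as E2F and DREAM targets had a lower median than the G2 and mitosis genes. Of 48 tested, 47 had a lower estimate, and the median log2 fold change was -0.71. In 40 (83.3%) every OXA library was below every NT library, against 14.4% of all tested genes. By edgeR, 35 (72.9%) were called lower, against 2.29% of all tested genes. None was called higher by edgeR or DESeq2, and none had an unadjusted p under 0.05 with a higher estimate. The lowest were CCNE2, a cyclin of S phase entry, from 1318 ± 151 to 584 ± 71.6 normalized counts (-1.17, adjusted p = 0.00615), E2F1, an activator E2F (-1.10, adjusted p = 0.00858), POLA2 of DNA polymerase alpha (-1.01, adjusted p = 0.0118), the helicase subunit MCM6 (-1.01, adjusted p = 0.00845) and the helicase BRIP1 (-1.001, adjusted p = 0.00617), all by edgeR. CCNE2 and BRIP1 were called whichever library was left out. The count of genes called lower was 20 without NT 3, 6 without OXA 1, 11 without OXA 2 and 18 without OXA 3. Over all tested genes these fits called 69, 19, 32 and 67 lower. E2F1 and MCM6 (each adjusted p = 0.0584 by edgeR without OXA 1) and POLA2 were among the G1/S genes that lost their call. No test of the difference between these 2 lists was made.

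**Figure D4:**
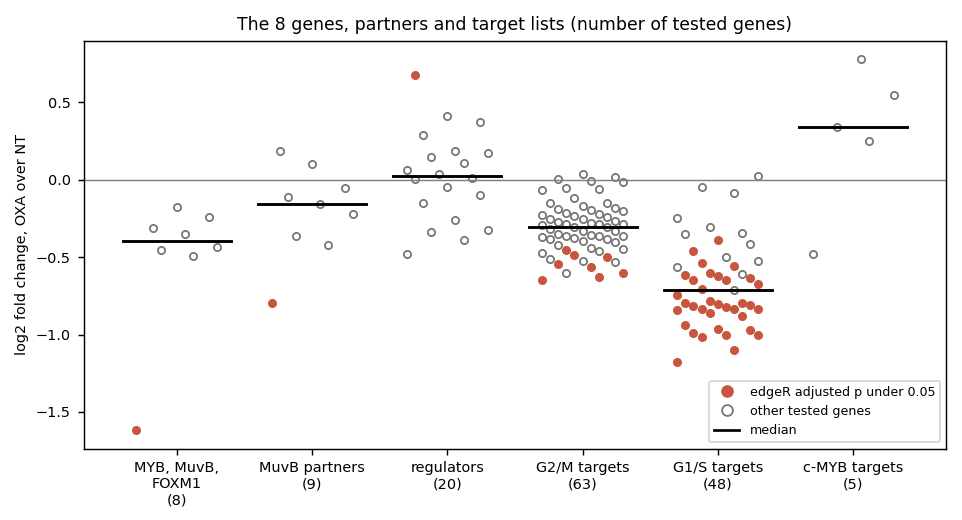
Log2 fold change of OXA over NT for each tested gene (points, filled where called) of the members and the partner, regulator, G2/M, G1/S and c-MYB target lists, with the list's median as a line. The G1/S list is centred on -0.71, the G2/M list on -0.31 and the regulators near 0.

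Genes reported as targets of c-MYB gave no calls, and their median log2 fold change was 0.34. None of the 5 tested passed the threshold by edgeR, 4 had an unadjusted p under 0.05 (3 with a higher and 1 with a lower estimate), as did 21.7% of all tested genes in either direction, and DESeq2 called 1 higher. The survival gene BCL2 had 180 ± 10.9 and 129 ± 10.6 normalized counts (SD, n = 3 each), a log2 fold change of -0.48 (adjusted p = 0.123 by edgeR, 0.0497 with the block). The other 4 estimates were above 0. MYC had 9144 ± 1283 and 13371 ± 1753 normalized counts (SD, n = 3 each), a log2 fold change of 0.55 (adjusted p = 0.0655 by edgeR, 0.0131 with the block). PTGS2, cyclooxygenase 2, had a log2 fold change of 0.78 (adjusted p = 0.0949 by edgeR, 0.0488 with the block), the chaperone HSPA5 0.25 (0.211 and 0.0240 in the same fits) and ADA 0.34 (0.268 without the block). KIT had 1 to 7 counts per library and CD34 none, so neither was tested.

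The identity of the cells was checked with markers. Of 8 markers of colorectal epithelium, LGALS4 never exceeded 3 counts, and the summed level of the 8 was 77719 to 111631 normalized counts in NT and 126336 to 149338 in OXA. The higher sum came mostly from 3 keratins, with KRT19 at 12220 and 29835, KRT8 at 39182 and 54402 and KRT18 at 30144 and 37416 normalized counts on average in NT and OXA. The log2 fold changes of EPCAM (-0.04), CDH1 (-0.20) and VIL1 (-0.38) were below 0, and the main edgeR fit called none of these 6 markers. With the block and trends removed, 3214 of all tested genes were called higher and 3038 lower. In that fit KRT19 (1.12) and KRT8 (0.30) were called higher, CDH1 (-0.17) lower, and KRT18, EPCAM and VIL1 were not called. CDX2 (0.24 in the main fit) was called in neither. The part of these markers in the members' differences was not tested. Of 10 markers of blood, stromal and endothelial cells, 3 never exceeded 3 counts, and their sum was 151 to 335 in NT and 212 to 329 in OXA. COL1A1 was the main part of that sum, and PTPRC, the general marker of blood cells, had 0 to 2 counts.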

How the data were processed

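Total RNA of HCT116 cells was sequenced as stranded polyA libraries in 2 groups, NT and OXA (3 libraries each). The submitters' processing notes name Trimmomatic 0.32, STAR 2.7.5b, RSEM 1.3.3, DESeq2 2.13 and GRCh38. The authors deposited a raw count and a normalized signal per gene and library. The counts are whole numbers; RSEM estimates rounded by the authors could not be told apart from read counts. The deposited signal is the count times a factor that differs between genes and libraries, and it served only for alternatives. Counting strand was not given in the sources used here.

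The 8 members and all gene lists were chosen with earlier results of these data known. Named genes were the members, RBBP4, called partners and regulators, the 5 lowest and 5 highest called genes of each target list, and the 3 genes most like MYB, MYBL2 and FOXM1. Other genes given with values were named after their values were seen.

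Genes were filtered with filterByExpr (minimum count 10, total 15), scaled by TMM and compared by edgeR's quasi-likelihood test, and p-values were adjusted by Benjamini-Hochberg over 13727 genes. Versions were R 4.3.3, limma 3.58.1, edgeR 4.0.16 and, for an alternative, DESeq2 1.42.0. The steps were first tested on simulated data. Positions, lengths and GC content (known for 99.6% of tested genes) came from GENCODE 44. Deviations of same-numbered NT and OXA libraries correlated at 0.547, 0.542 and 0.307 over genes, and those of other pairs at -0.467 to 0.0904. The part of GC content in these correlations was not tested. The numbers were therefore taken as pairs, but only in the fits with the replicate block. The main edgeR fit, with its errors, adjusted p-values and calls, did not use the pairs. What a number stands for is not in the labels. Counts cannot separate PCR duplicates, so intervals from counting would be a lower limit of error.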

Additional observations from a re-analysis of the deposited data

How the results depend on the processing

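All members had a lower estimate in OXA in each alternative. Counts of called genes moved with the setting, and the cause was not tested. With the replicate block, 1664 genes were called higher and 1493 lower (381 and 315 without it), with 4 members, 3 partners and 41 G2/M targets lower, 3 regulators higher and 5 lower, and 3 c-MYB targets higher and 1 lower. The block ended no call of a member or listed gene. With the block and GC and length trends removed, these were 3214, 3038, 7, 4, 57, 4, 6, 4 and 1. DESeq2 called 604 genes higher and 571 lower, 3 members, 2 partners and 17 G2/M targets lower, 2 regulators higher and 3 lower, and 1 c-MYB target higher. With library totals only, 511 genes, 4 members, 3 partners, 3 regulators and 14 G2/M targets were lower. A filter of 1 CPM in 3 libraries gave 479, 3, 2, 2 and 14, and no filter gave 2 partners. The authors' factors as offsets gave 241 higher and 200 lower, and limma on their normalized values 236 and 187, with 5 G2/M targets lower. A fold over 1.5 as well left 198 genes and 3 G2/M targets lower. Leaving out 1 library gave 66 to 623 genes higher and 19 to 571 lower, 1 to 4 members, 0 to 2 partners, 0 to 17 G2/M and 6 to 40 G1/S targets lower, 0 to 3 regulators higher and 0 to 2 lower, and 0 to 1 c-MYB targets higher. The fewest calls came without OXA 1 and the most without NT 1. With the union of exons as length, NT levels were 2.81 for MYB, 2.64 for MYBL1, 3.58 for LIN9, 1.89 for LIN37, 5.57 for LIN52, 5.48 for LIN54, 47.1 for MYBL2 and 38.0 for FOXM1. The order thus changed, with MYBL2 above FOXM1 on average and LIN37 the lowest. In the bases before the start only, the MYB letters were in 0 member promoters. Depth limits LIN37 most, with 116 to 245 counts per library.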
